A study of Mus musculus with 7 samples.

Results

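miR-155 and miR-146 are microRNAs (miRNAs) of activated lymphocytes, and 4 of the 1881 miRNA names on the array belong to them: mmu-miR-155-5p, mmu-miR-155-3p, mmu-miR-146a-5p and mmu-miR-146b-5p (mmu for mouse, dropped below). They were taken by name from the array annotation, and the within-array ratio of miR-155-5p to miR-146a-5p was added as a measure of the pair. Signal was measured on 7 one-colour arrays of CD4+ T cells, which had been picked from draining lymph nodes with antibody-coated magnetic beads. There were 4 arrays of mice with EAM, which models myocarditis, and 3 of mice with LAD, which models myocardial infarction. By the sample labels the EAM cells were taken at day 6 and the LAD cells at day 3 after induction, while the series text gives these days the other way round. There were no cells of healthy mice, and model, day and column of the slide changed together, so these cannot be told apart. Strain, age, genotype and how each model was induced are not given in the sources used here. The series text speaks of 4 EAM and 3 LAD mice but does not say that each array holds 1 mouse, so p-values measure only the spread between these samples.

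A miRNA binds messenger RNAs mainly through its seed, bases 2 to 8 from the 5′ end, and lowers the output of the transcripts it pairs with. Antigen receptor and toll-like receptor signals act through the transcription factor NF-κB on both miRNA genes. miR-155, processed from the noncoding transcript Bic, sustains T cell activation by repressing brakes such as Socs1 and Inpp5d. miR-146a represses Traf6 and Irak1, which lie upstream of NF-κB, and so closes a negative feedback loop. miR-146b comes from a separate gene and carries the same seed as miR-146a.

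The mature sequences are shown because they set apart what the array can and cannot separate. All 4 names matched the RefSeq table (GRCm38.p6), and capitals mark the seed.
mmu-miR-155-5p: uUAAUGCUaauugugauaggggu
mmu-miR-155-3p: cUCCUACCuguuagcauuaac
mmu-miR-146a-5p: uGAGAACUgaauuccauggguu
mmu-miR-146b-5p: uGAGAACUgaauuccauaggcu

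miR-155-5p lies at chr16:84714143-84714165 and miR-155-3p, the opposite arm of the same hairpin, at chr16:84714182-84714202, both on the plus strand and within the span of the noncoding gene Mir155hg (another name of Bic). miR-146a-5p lies at chr11:43374435-43374456 on the minus strand, outside any annotated gene other than its own. miR-146b-5p lies at chr19:46342790-46342811 on the plus strand, within the span of the noncoding gene Gm36493. The gap between its gene, Mir146b, and Nfkb2 is 30361 bases, and Nfkb2 encodes a subunit of NF-κB. Among the 1679 mature names of that table, the seed of miR-155-5p was its own alone, and that of miR-146a-5p was shared with miR-146b-5p only. miR-146a-5p and miR-146b-5p were identical at 20 of 22 bases. Counted from the 5′ end, with miR-146a-5p first, they differ by G18A and U21C.

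Each miRNA was read by a pair of probes of different length, each printed in 15 spots. The probes pair with most of the miRNA up to its 3′ end, from base 6 or 7 in miR-155-5p and from base 4 or 5 in the miR-146 pair. Both differences of the miR-146 pair lie within the paired stretch. They are shown 5′ to 3′ as the scanner files give them. Capitals mark the base that the shorter miR-155-5p probe lacks and, in the miR-146 probes, the bases that differ between miR-146a-5p and miR-146b-5p.
miR-155-5p, 18 bases: acccctatcacaattagC
miR-155-5p, 17 bases: acccctatcacaattag
miR-146a-5p, 19 bases: aAccCatggaattcagttc
miR-146a-5p, 18 bases: aAccCatggaattcagtt
miR-146b-5p, 19 bases: aGccTatggaattcagttc
miR-146b-5p, 18 bases: aGccTatggaattcagtt

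The LAD arrays were dimmer than the EAM arrays and differed more among themselves. Over the 251 miRNAs detected on all arrays, the 75th percentile of total gene signal was 171 to 246 intensity units on the EAM arrays, against 38.5, 92.8 and 29.2 on LAD arrays 1, 2 and 3. The negative control spots had nearly the same medians in both models, 45.6 to 50.9 units in EAM and 47.3 to 49.6 in LAD. Of the 423 miRNAs tested, 398 (94.1%) had a larger standard deviation (SD) among the LAD arrays than among the EAM arrays. All 5 markers listed for lymphocytes and T cells were detected on every array, with a summed log2 level of 15.72 to 15.86 in EAM and 15.37 to 15.56 in LAD. Most of that sum was miR-142a-3p, a miRNA of leukocytes at large (15.18 to 15.40 in EAM, 14.86 to 14.95 in LAD), so it does not measure lymphocyte content. Of the 5 markers, miR-150-5p and miR-142a-3p were higher in EAM and miR-181a-5p in LAD. All 4 stromal and all 4 heart and skeletal muscle markers were undetected on every array (summed log2 levels of 6.15 to 6.32 in EAM and 6.19 to 6.40 in LAD).

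In the unscaled signal, miR-155-5p and miR-146a-5p were bright in EAM cells and dim in LAD cells, and miR-146b-5p was dim in both. miR-155-5p had a total gene signal of 633, 727, 594 and 776 intensity units on EAM arrays 1 to 4, against 82.6, 103 and 30.3 on LAD arrays 1 to 3. miR-146a-5p had 518, 577, 502 and 647 units on the EAM arrays, against 64.9, 25.8 and 18.1 on the LAD arrays. Both miRNAs were thus lower on every LAD array, and on LAD array 2 miR-155-5p stood above its level on LAD array 1 while miR-146a-5p stood below. miR-146b-5p had 7.67, 8.89, 8.35 and 9.80 units on the EAM arrays, against 2.69, 17.3 and 4.08 on the LAD arrays. LAD array 2 thus held the highest miR-146b-5p signal of all arrays, while LAD arrays 1 and 3 were below every EAM array. In RNA pooled from many cells, fewer cells with a miRNA and less of it per cell cannot be told apart.

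**Figure D1:**
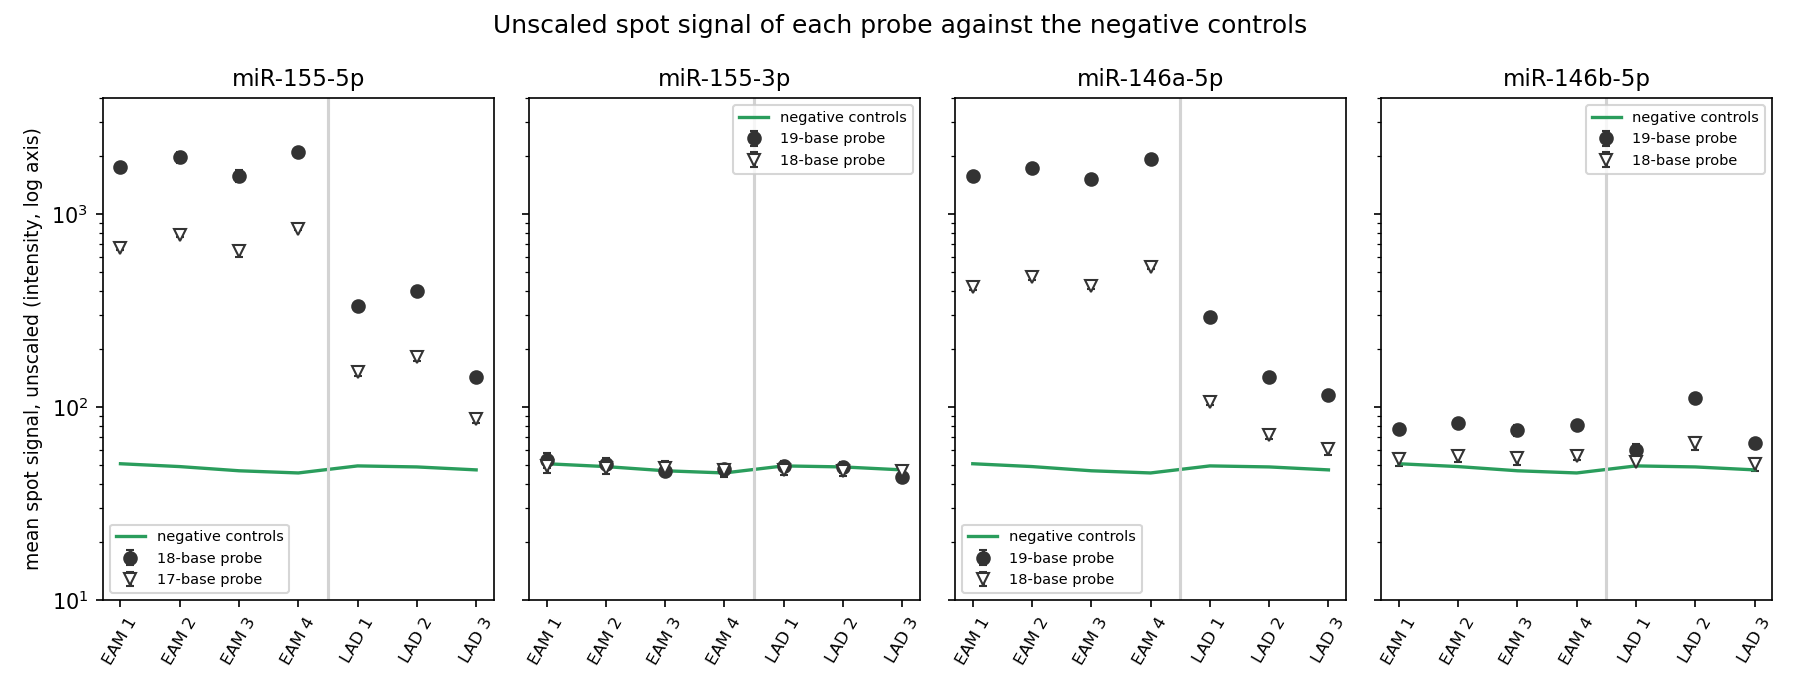
Median mean spot signal of each probe on each array, in unscaled intensity units on a log axis, with the SD over its spots (often smaller than the symbol) and the median of the negative control spots as a line. Both probes of miR-155-5p and miR-146a-5p stand well above the line in EAM and closer to it in LAD, those of miR-155-3p lie on it, and the 19-base probe of miR-146b-5p is highest on LAD array 2 at 112 units.

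The spots of a probe agreed closely, so that the spread lay between arrays and not between spots. The coefficient of variation over the spots of one probe was 1.58% to 7.34% for miR-155-5p and 1.29% to 6.49% for miR-146a-5p, over 14 combinations of probe and array each. No spot of the 4 miRNAs was saturated. The signals of the 18-base probe of miR-155-5p were 34.4, 40.0, 33.8 and 46.3 times the negative controls on the EAM arrays, against 6.75, 8.18 and 3.04 times on the LAD arrays. Those of the 19-base probe of miR-146a-5p were 31.0, 35.4, 32.5 and 42.3 times in EAM, against 5.89, 2.94 and 2.43 times in LAD. Both were thus clear of background on every array. The 18-base probe of miR-146a-5p came closer to background, at 8.27 to 11.7 times the negative controls in EAM, against 2.14, 1.46 and 1.28 times in LAD. On LAD array 3, 5 of its 15 spots were well above background.

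miR-155-3p, the passenger arm of the miR-155 hairpin, was not detected on any array. Its probes read 43.6 to 53.0 units, or 0.922 to 1.05 times the negative controls, and 1 of 210 spots was well above background. It therefore has no measured difference here, and no ratio of the miR-155 arms was formed. The other 3 miRNAs were detected on all arrays and were tested.

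The groups were compared after background correction with the normexp model and quantile normalization, which gives each array the same distribution of spot signals. The unit is log2 of that signal, each difference is EAM minus LAD, and limma tested it with Benjamini-Hochberg adjustment over all 423 miRNAs. miR-155-5p was at 9.59, 9.66, 9.63 and 9.62 on the EAM arrays, against 9.43, 8.17 and 7.93 on the LAD arrays. The EAM arrays averaged 9.62 ± 0.03 (SD, n = 4) and the LAD arrays 8.51 ± 0.80 (SD, n = 3), 2.17-fold higher in EAM (log2 difference 1.12, standard error 0.33, limma adjusted p = 0.0264). The groups did not overlap, but the LAD arrays stood at very different distances from the EAM mean, -0.20, -1.45 and -1.70 for LAD arrays 1, 2 and 3 (LAD minus EAM mean). Without LAD array 3 the difference was 0.83 and limma no longer passed it (adjusted p = 0.0858). Without any single EAM array limma's adjusted p was 0.0565 to 0.0680 at differences of 1.11 to 1.13.

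miR-146a-5p was higher in EAM as well, by 3.68-fold. It was at 9.11, 9.20, 9.27 and 9.24 on the EAM arrays, against 8.75, 6.40 and 6.84 on the LAD arrays. The EAM arrays averaged 9.21 ± 0.07 (SD, n = 4) and the LAD arrays 7.33 ± 1.25 (SD, n = 3) (log2 difference 1.88, standard error 0.50, limma adjusted p = 0.0203). LAD arrays 2 and 3 were far below every EAM array, while LAD array 1 was close to them (LAD minus EAM mean -0.46). Limma's adjusted p was 0.0699 without LAD array 3 (difference 1.63), and 0.0493 to 0.0570 without any single EAM array. Leaving out LAD array 1, the difference of miR-146a-5p became 2.59 and that of miR-155-5p 1.58.

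miR-146b-5p did not pass. Its values were 4.82, 5.09, 5.17 and 5.24 on the EAM arrays, against 4.95, 6.08 and 5.38 on the LAD arrays, and averaged 5.08 ± 0.18 in EAM (SD, n = 4) and 5.47 ± 0.57 in LAD (SD, n = 3). The groups overlapped, with LAD array 1 inside the EAM range and LAD arrays 2 and 3 above it. The difference was -0.39 (95% interval -0.99 to 0.22, limma adjusted p = 0.214), a mean 1.31-fold higher in LAD with an interval that spans 0. Leaving out LAD array 2 gave -0.09, and leaving out LAD array 1 gave -0.65. Its 18-base probe was at most 1.33 times the negative controls on any array, so the signal of this miRNA rests mainly on the 19-base probe.

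**Figure D2:**
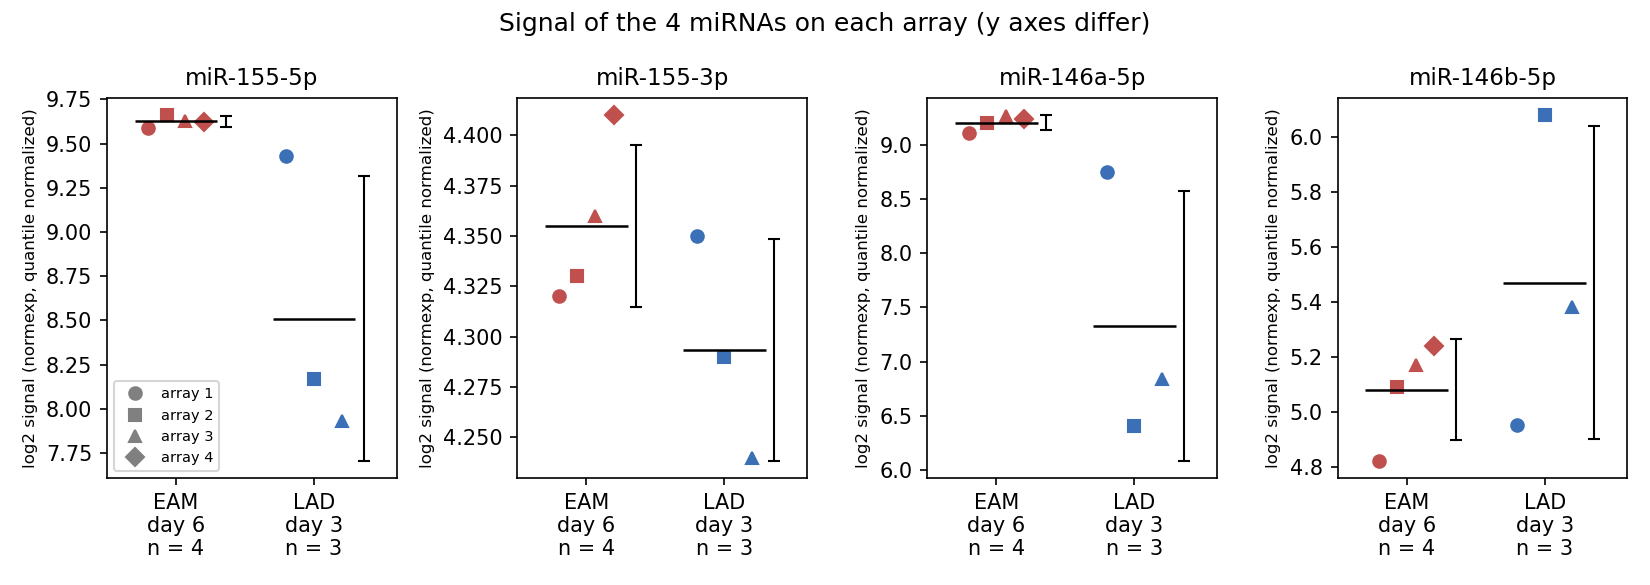
Log2 signal (normexp background correction, quantile normalization) of the 4 miRNAs on each array, with symbols for the array number, a line at the group mean and a bar of 1 SD; the vertical scales differ. miR-155-5p and miR-146a-5p sit tightly at 9.62 and 9.21 in EAM and spread downward in LAD, miR-155-3p lies at background in both, and miR-146b-5p is highest on LAD array 2 at 6.08.

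Of the 3 members tested, 2 passed as higher in EAM, where 36.2% of all tested miRNAs did, and 0 as higher in LAD, where 23.6% did (59.8% of all tested miRNAs passed in either direction). The groups were apart for the same 2 members, as for 56.3% of all tested miRNAs. A call toward EAM or a gap between the groups was therefore common on these arrays. The median difference over the 423 miRNAs was 0.31, so that miR-155-5p stood 0.80 above it, miR-146a-5p 1.57 above it and miR-146b-5p 0.70 below it (relative difference -0.70). Ordered by difference toward EAM, miR-146a-5p was number 4, miR-155-5p number 23 and miR-146b-5p number 304. From total gene signal, floored at 0.1 units and quantile normalized over miRNA names instead of spots, these places were 150, 195 and 372. Undetected miRNAs such as miR-155-3p sit at that floor, and how far this moved the places was not tested.

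The sizes of the differences depended on how the arrays were scaled. With no scaling the median of all miRNAs was 1.17, and the differences were 2.89 for miR-155-5p and 3.45 for miR-146a-5p (limma adjusted p = 0.00179 and 0.00130), or 1.72 and 2.28 above the median. miR-146b-5p was then at 0.31 toward EAM (adjusted p = 0.385), so that its sign turned, while it remained below the median by 0.85 (-0.85). With median centring the differences were 2.42, 2.97 and -0.16, and scaling each array to the 75th percentile over all probes gave 2.08, 2.82 and -0.24, in the same order. By total gene signal miR-155-5p was at 0.91 and no longer passed (limma adjusted p = 0.0817), and miR-146b-5p was at -1.94 (adjusted p = 0.0505). In the authors' deposited table the values of miR-155-5p were 9.67 to 9.76 in EAM, against 8.81, 8.28 and 7.95 in LAD, and limma on that table gave a difference of 1.38 (adjusted p = 0.00610). miR-146a-5p in the authors' deposited table was at 9.12 to 9.45 in EAM, against 8.32, 6.85 and 7.15 in LAD, a difference of 1.86 (adjusted p = 0.0127). An unmoderated test with unequal variances, which allows for the larger spread in LAD, passed neither (adjusted p = 0.234 for miR-155-5p and 0.225 for miR-146a-5p). It passed 0 of all 423 miRNAs, so this says nothing particular of these members.

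**Figure D3:**
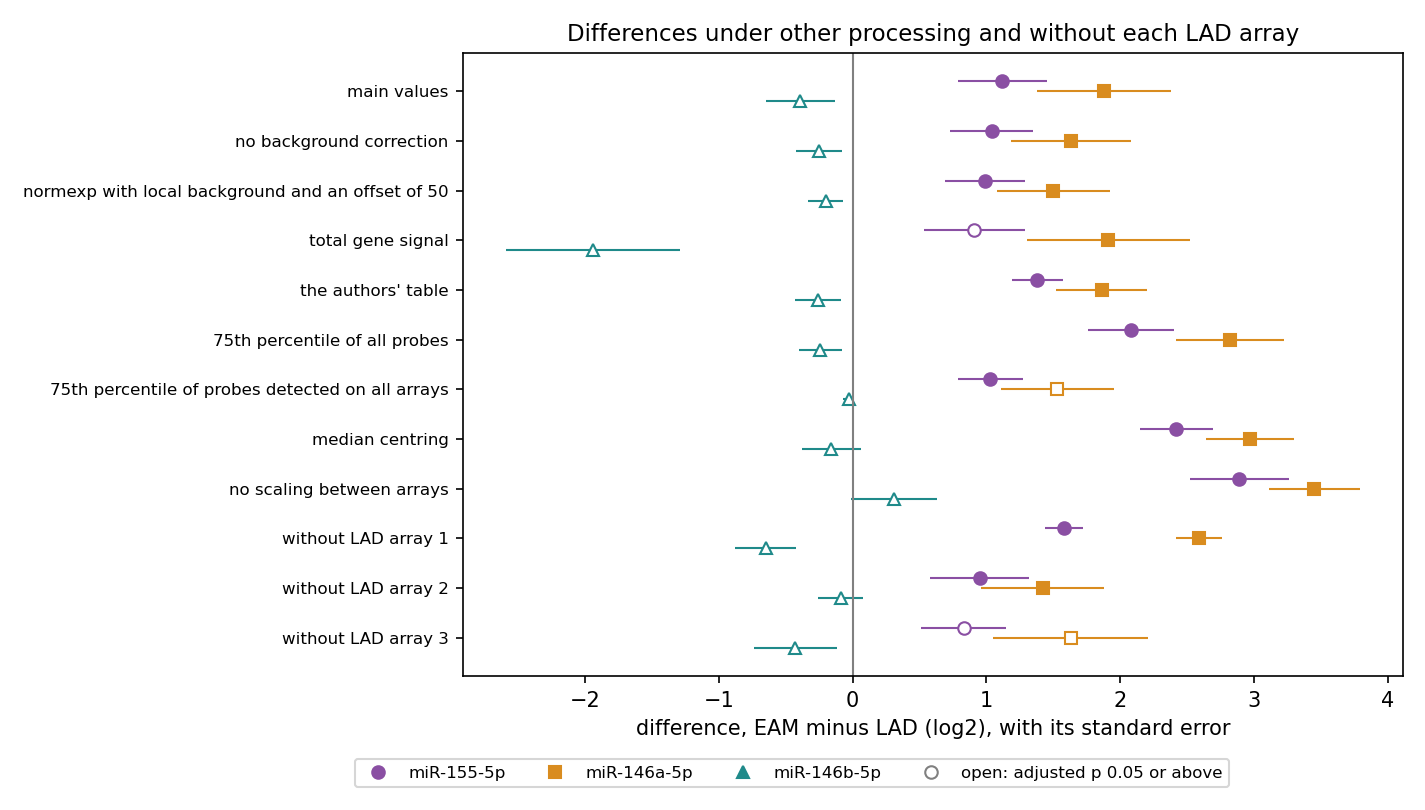
Difference between EAM and LAD (EAM minus LAD, log2, with its limma standard error) of the 3 detected miRNAs under 9 sets of values and without each LAD array; open symbols have an adjusted p of 0.05 or above. miR-155-5p and miR-146a-5p lie to the right of 0 throughout, from 0.83 to 2.89 and from 1.42 to 3.45, and miR-146b-5p lies left of 0 except at 0.31 without scaling.

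The probes of one miRNA did not fully agree after normalization. The 17-base probe of miR-155-5p gave a difference of 1.30 with the groups apart, and the 18-base probe 0.93 with LAD array 1 at 10.41, above all 4 EAM arrays (10.25 to 10.30). The 18-base probe of miR-146a-5p gave 2.07 with the groups apart, and the 19-base probe 1.69 with LAD array 1 at 10.15, inside the EAM range of 10.06 to 10.22. For miR-146b-5p the 19-base probe gave -0.54, and the 18-base probe was too close to background in EAM to be read. The place of LAD array 1 differed between the probes of miR-155-5p and of miR-146a-5p.

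The ratio of miR-155-5p to miR-146a-5p was higher on the LAD arrays in these values. Probes differ in brightness per molecule, so the ratio says nothing of which miRNA was more abundant, and only its change between arrays is read. The log2 ratio was 0.48, 0.46, 0.35 and 0.38 on the EAM arrays, against 0.68, 1.77 and 1.09 on the LAD arrays. LAD array 2 had the highest ratio, and LAD array 1 was nearest to the EAM range. The EAM arrays averaged 0.42 ± 0.06 (SD, n = 4) and the LAD arrays 1.18 ± 0.55 (SD, n = 3), a difference of -0.76, or a ratio 1.70-fold higher in LAD. The two-sided exact permutation p, doubled from the smaller one-sided p, was 0.0571. With 35 ways of splitting 4 and 3 arrays this is the smallest that the doubled p can be, so the test cannot reach 0.05. The difference became -0.47 when LAD array 2 was left out and -1.01 when LAD array 1 was left out.

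The groups overlapped under some other processing. In the authors' deposited table the log2 ratio was 0.56, 0.56, 0.28 and 0.32 on the EAM arrays, against 0.48, 1.43 and 0.80 on the LAD arrays (two-sided exact permutation p = 0.171). LAD array 1 then fell inside the EAM range. Without scaling it fell inside as well, at 0.46 against 0.34 to 0.47 in EAM (difference -0.56, exact permutation p = 0.114). From quantile-normalized total gene signal the groups were farther apart, 0.15 to 0.20 in EAM and 0.55, 1.83 and 1.17 in LAD. Before that normalization LAD array 1 was close to EAM. It read 82.6 units for miR-155-5p and 64.9 for miR-146a-5p, against 727 and 577 on EAM array 2, which are nearly the same proportions. From single probes the difference was -0.39 to -1.14, and with the 17-base probe of miR-155-5p and the 19-base probe of miR-146a-5p the groups overlapped (-1.24 to -1.07 in EAM and -1.70, 0.36 and -0.96 in LAD). LAD arrays 2 and 3 were above all EAM arrays in every one of these sets.

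The ratio of miR-146a-5p to miR-146b-5p, the pair with a common seed, differed more. Its log2 value was 4.30, 4.11, 4.10 and 4.01 on the EAM arrays, against 3.80, 0.32 and 1.46 on the LAD arrays. LAD array 1 lay near the EAM arrays, and LAD arrays 2 and 3 far below them. The EAM arrays averaged 4.13 ± 0.12 (SD, n = 4) and the LAD arrays 1.86 ± 1.77 (SD, n = 3), a difference of 2.27, or a ratio 4.82-fold higher in EAM (two-sided exact permutation p = 0.0571, the smallest possible). The groups were apart in all 10 sets of values that use both probes of each miRNA, with differences from 1.56 to 3.85. Leaving out LAD array 2 gave 1.50, and leaving out LAD array 1 gave 3.24. The denominator was near background: the 18-base probe of miR-146b-5p had 0 of 15 spots well above background on each EAM array (1.05 to 1.23 times the negative controls), and its 19-base probe had 2 of 15 on LAD array 1. The fold is therefore not an exact ratio of levels, and of the difference of 2.27, 1.88 is the difference of miR-146a-5p itself. The 19-base probes, which differ at only the bases shown in capitals, gave 2.23 (two-sided exact permutation p = 0.229). With them LAD array 1 at 4.87 reached the highest EAM array, also 4.87. In unscaled signal the 19-base probes of the 2 miRNAs left their EAM ranges in opposite directions on LAD array 2 alone. There the 19-base probes were at 2.94 times the negative controls for miR-146a-5p and 2.29 times for miR-146b-5p, while on the EAM arrays they were at 31.0 to 42.3 and 1.52 to 1.77 times. On LAD arrays 1 and 3 both were below their EAM range, at 5.89 and 2.43 times for miR-146a-5p and 1.21 and 1.38 times for miR-146b-5p. The fall was unlike in size on LAD array 3, where the normalized log2 ratio of the 19-base probes was 2.07, against 4.51 to 4.87 in EAM.

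**Figure D4:**
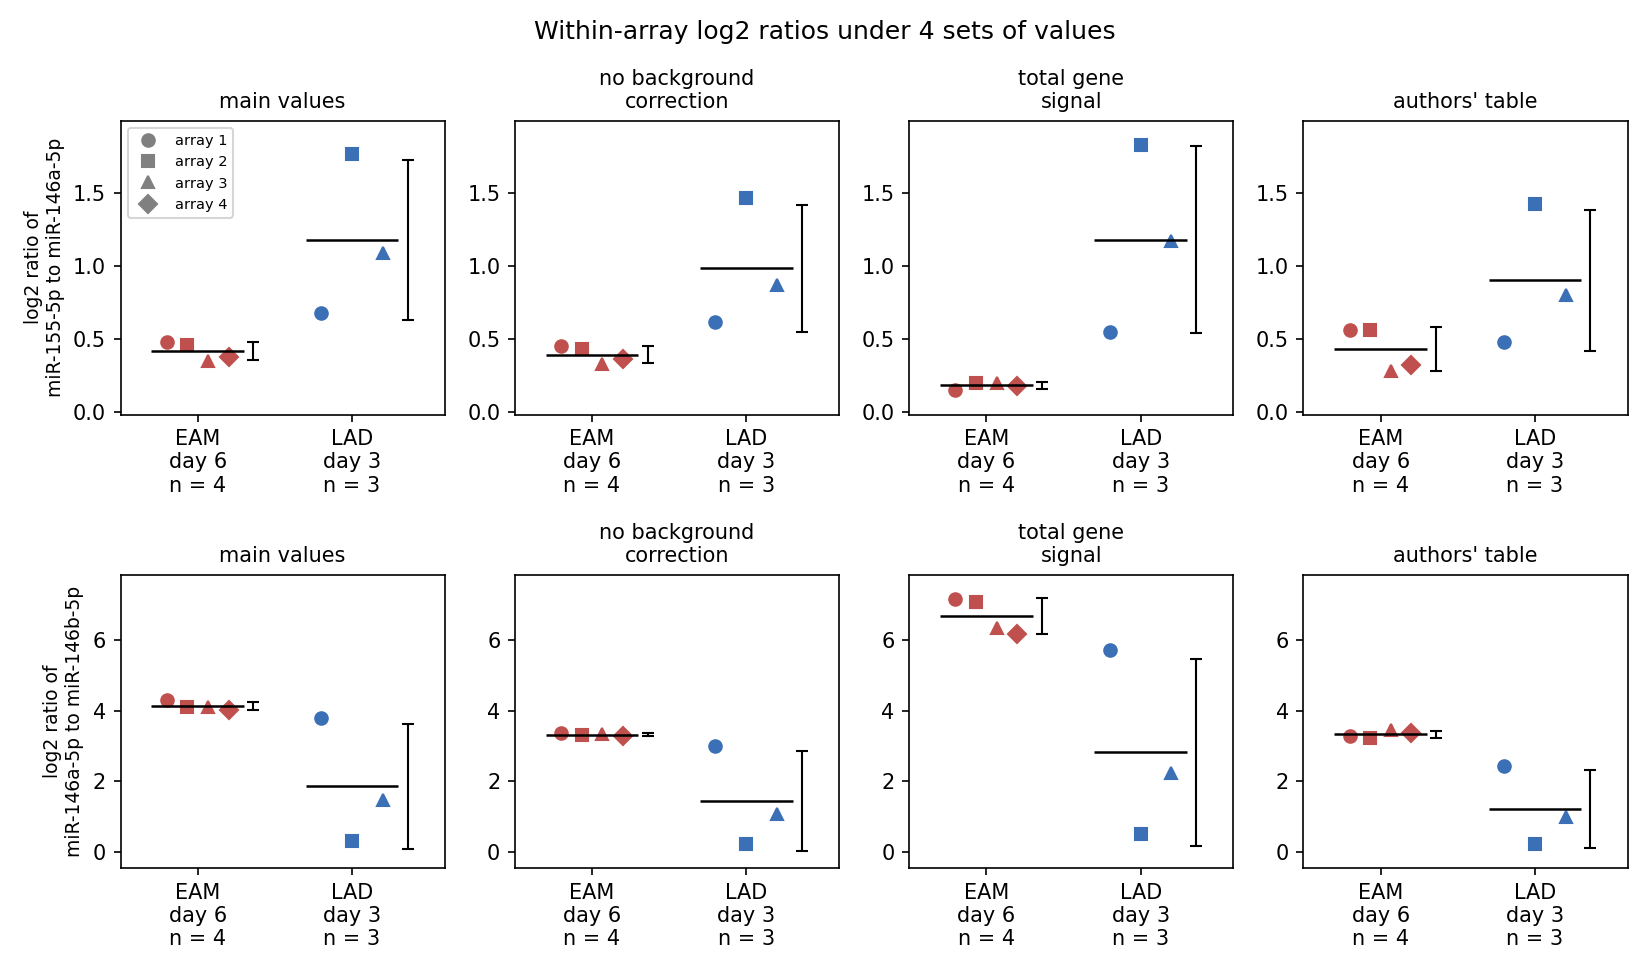
Within-array log2 ratios of miR-155-5p to miR-146a-5p (top) and of miR-146a-5p to miR-146b-5p (bottom) on each array under 4 sets of values, with a line at the group mean and a bar of 1 SD. The top ratio is highest on LAD array 2 in each set (1.77 in the main values) and overlaps between groups in the authors' table; the bottom ratio is lowest on LAD array 2 (0.32) and apart between groups in each set shown.

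Profiles were compared by the root-mean-square distance over the 7 arrays between log2 values centred on each miRNA's own mean, among the 251 miRNAs detected on all arrays. These distances share the same arrays and normalization and are given as a description. Closest to miR-155-5p were miR-139-5p (0.22), miR-378d (0.26), miR-30b-5p (0.28), miR-29b-3p (0.30) and miR-3535 (0.31). Closest to miR-146a-5p were miR-29c-3p (0.15), miR-29a-3p (0.30), miR-29b-3p (0.32), miR-150-5p (0.37) and miR-101a-3p (0.37). All of these had higher means in EAM. Closest to miR-146b-5p were miR-19a-3p (0.15), miR-16-5p, miR-25-3p and miR-296-5p (0.17 each) and miR-20a-5p (0.18), all with their highest value on LAD array 2. miR-146a-5p came 25th of 250 in closeness to miR-155-5p (0.48), and miR-146b-5p 193rd of 250 in closeness to miR-146a-5p (1.47).

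None of the other NF-κB-induced miRNAs tested was called different between the models. Of 9 miRNAs that NF-κB or inflammatory signals are known to induce in some cell type, 5 were tested and limma passed 0, with 0 at an unadjusted p under 0.05 and 0 by the unequal-variance test. Over all tested miRNAs limma passed 59.8%, while the unequal-variance test passed 0 of 423 and so says nothing of these 5. Their median difference was -0.21, beside 0.31 for all tested miRNAs. miR-21a-5p, which activated T cells induce, was at 12.62, 12.51, 12.60 and 12.50 in EAM, against 13.04, 10.96 and 11.94 in LAD, with LAD arrays on both sides of EAM (limma adjusted p = 0.248). It was at 3.08 without scaling and 2.61 with median centring, where limma passed it (adjusted p = 0.00231 and 0.00169). miR-34a-5p, miR-132-3p, miR-221-3p and miR-301a-3p had differences of -0.53, -0.26, 0.27 and -0.21. Limma passed 1 of the 5 (miR-301a-3p, toward EAM) when LAD array 2 was left out, and 2 (miR-21a-5p toward EAM and miR-34a-5p toward LAD) when LAD array 1 was. miR-9-5p, miR-147-3p, miR-187-3p and miR-222-3p were not detected on any array.

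Of 10 miRNAs reported to repress NF-κB pathway components or their regulators, 6 were tested. Limma passed 3, all higher in LAD, and 3 did not pass, where 23.6% of all tested miRNAs passed as higher in LAD and 59.8% in either direction. A count of 3 of 6 is near the rate of calls in either direction and above the rate toward LAD. The list is small and was not tested as a set. The median difference of the 6 was -0.59. miR-223-3p, a myeloid miRNA that represses the kinase IKKα in human monocytes, was 3.11-fold higher in LAD, with 6.43 to 6.73 in EAM, against 9.19, 7.78 and 7.71 in LAD (limma adjusted p = 0.0127). It was the 1 of the 6 with the groups apart, as they were for 56.3% of all tested miRNAs. miR-181b-5p was at 5.50 to 5.85 in EAM, against 5.78, 10.22 and 8.91 in LAD (difference -2.60, limma adjusted p = 0.0398), so LAD arrays 2 and 3 carried its difference, which was -1.64 without LAD array 2 (adjusted p = 0.0807). miR-15a-5p was at 10.60 to 10.95 in EAM, against 10.83, 12.12 and 11.69 in LAD (difference -0.82, limma adjusted p = 0.0413). Without scaling miR-15a-5p turned to 1.70 toward EAM (limma adjusted p = 0.0413), and miR-223-3p was at -0.02 (adjusted p = 0.965). Limma passed 1 of the 6 without any single EAM array, LAD array 2 or LAD array 3, and in each case it was miR-223-3p. Of the rest, miR-16-5p, miR-125a-5p and miR-125b-5p were at -0.36, -0.18 and 0.05 and did not pass. miR-10a-5p was detected on 1 EAM array, and miR-182-5p, miR-199a-3p and miR-210-3p on none.

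Some markers of other cell types differed between the models as well. Of the 2 myeloid markers, miR-223-3p was higher in LAD and miR-223-5p was undetected on every array. Their summed log2 level was 6.65 to 6.93 in EAM and 7.81 to 9.23 in LAD, highest on LAD array 1. In the normalized values miR-155-5p and miR-146a-5p were closest to EAM on that array. In unscaled total gene signal miR-155-5p was closest on LAD array 2 instead (103 units, against 82.6 on LAD array 1). Of the 6 epithelial markers, 5 were detected on some array and 4 were higher in EAM, as were 36.2% of all tested miRNAs. Their summed log2 level was 7.61 to 7.93 in EAM and 7.04 to 7.35 in LAD. The 4 were detected on all 4 EAM arrays, but miR-200a-3p and miR-203-3p on 0 LAD arrays and miR-200b-3p and miR-141-3p on 1. They entered the test only through the group where they were higher, so their calls are given as a description. Of 3 red cell markers, miR-451a alone was detected and did not pass (limma adjusted p = 0.740), with summed log2 levels of 7.03 to 7.49 in EAM and 6.82 to 8.04 in LAD. Of 2 endothelial markers 1 was detected on some arrays, with summed log2 levels of 5.56 to 5.82 in EAM and 5.35 to 6.34 in LAD. Myeloid and B cells can express miR-155 and miR-146a too, and the part of other cells in the differences was not tested.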

How the data were processed

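Per the labels' protocols, each sample gave 100 ng of RNA, to which Cy3 was ligated. Per the file headers, the deposited scanner files were made with Agilent Feature Extraction 10.7.3.1 and give intensity per spot and per miRNA (total gene signal), not scaled between arrays, with flags that are 0 or 1. The deposited table of the authors is in log2 units, with a value for each name; the submitters' processing notes name RMA. Of its values, 97.9% lay within 0.1 of log2 spot signal that was quantile normalized with no correction for background.

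Mean spot signal was corrected with normexp (limma 3.58.1, R 4.3.3, data.table version 1.17.8) on all spots, quantile normalized over the 56430 spots that are not controls, and summarized as the median over a probe's spots without outlier spots, then by median polish over probes. limma tested the 423 miRNAs that all EAM arrays or all LAD arrays detected, at an adjusted p threshold of 0.05. The test was tried on simulated data. Per-array ratios were compared by two-sided exact permutation tests, whose p is doubled from the smaller one-sided p. Precision is limited by how many arrays there are.

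The members and lists were chosen with earlier results of these data known. Named miRNAs are the members, the lists on NF-κB, the 5 profiles nearest to each detected member, and cell type markers. Alternatives were other background correction, scaling, summaries, filters and variance models, the authors' table, a replicate block and leaving out each array. Single probe pairs and normexp on the spots that are not controls were added after seeing the data.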

Additional observations from a re-analysis of the deposited data

How the results depend on the processing

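miR-155-5p and miR-146a-5p were higher in EAM under every alternative run, though miR-155-5p was not always above the median difference of all tested miRNAs. With array weights it was at 0.39, just under a median of 0.4. By total gene signal it was above the median, at 0.91 beside 0.69, but by less than in the values reported (0.23 against 0.80). The difference of miR-155-5p (EAM minus LAD, log2) did not pass by total gene signal (0.91), with array weights (0.39; the weights stopped short of convergence and gave LAD array 2 a weight of 0.06), by the unequal-variance test (1.12) or with the replicate block (1.12, limma adjusted p = 0.0945), and it ranged from 0.83 to 1.58 when 1 array was left out. That of miR-146a-5p did not pass with the 75th percentile of detected probes (1.53), by the unequal-variance test (1.88) or with the replicate block (1.87, adjusted p = 0.0902), it was smaller but still passed with array weights (0.74, adjusted p = 0.0296), and it ranged from 1.42 to 2.59. miR-146b-5p turned toward EAM without scaling (0.31) and with array weights (0.12), and ranged from -0.65 to -0.09 with 1 array left out. The cause was not tested. Calls among all miRNAs, 253 here, were 102 and 40 with the 75th percentile of all and of detected probes (fewer miRNAs tested), 135 among miRNAs detected on all arrays (fewer tested), 0 by the unequal-variance test (121 at an unadjusted p under 0.05) and 0 with the replicate block (179 unadjusted), and 66 to 344 with 1 array left out (344 without LAD array 2, and 66 to 147 without any other single array). Without scaling 299 were higher in EAM and 2 in LAD, with median centring 265 and 54, scaled to the 75th percentile over all probes 90 and 12 and over detected probes 34 and 6, by total gene signal 99 and 87, and among miRNAs detected on all arrays 52 and 83, beside 153 and 100 in the values reported. Calls among miRNAs induced by NF-κB, 0 here, were 1 with the 75th percentile of all probes, 2 with median centring, 2 without scaling and 1 with array weights, and 0 to 2 with 1 array left out. Calls among miRNAs acting on the pathway, 3 here, were 1 with local background and an offset of 50, with either 75th percentile, with median centring (toward EAM), by total gene signal and in the authors' table, 0 by the unequal-variance test and with the replicate block, and 1 to 4 with 1 array left out. Without scaling 3 passed as higher in EAM (miR-15a-5p, miR-16-5p and miR-125b-5p). The replicate numbers share only a number: deviations of same-numbered arrays correlated at 0.20, -0.16 and -0.19. Both ratios kept their direction under every alternative, with exact permutation p values of 0.0571 to 0.629 for miR-155-5p to miR-146a-5p. No ratio of miR-155-5p to miR-155-3p and no test of miR-155-3p were run, since miR-155-3p was undetected. On LAD array 3 the 18-base probe of miR-146a-5p and on most arrays miR-146b-5p were close to background, which limits how far their levels can be told apart.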

Other observations

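The 3p arms of the miR-146 genes, which no comparison used, were not detected on any of the 7 arrays. The probes of miR-146a-3p read 0.926 to 0.96 times the median of the negative controls, and those of miR-146b-3p read 0.876 to 0.992 times. With miR-155-3p this makes 3 opposite arms at background, beside 3 5p arms that were detected on every array.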
